A study of Arabidopsis thaliana with 12 samples.

Results

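DI21 (locus AT4G15910), a drought-inducible gene, and AT4G05070 were each measured by 1 probe of an Arabidopsis thaliana array. They account for 2 of the 691 genes that the platform's table names alone on a probe, and for 2 of the 3439 probes. RNA came from 6 samples of the psak mutant in ecotype Columbia 0 and 6 wild-type samples (WT) of the same ecotype. What sets psak apart is the missing PSI-K protein, which sits in the membrane part of photosystem I and helps to hold its light-harvesting antenna. The labels name no tissue, plant age, growth condition or number of plants, and no sample is labelled as dried or wounded. They number the samples 1 to 6 in each genotype without saying what a number stands for. Both genes were chosen by their measured intensities in these samples, as single-gene probes with some of the largest psak minus WT differences on this array, so every psak minus WT value of theirs below is a description and not a test.

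Plants that run short of water accumulate abscisic acid, and this hormone, together with pathways that do not depend on it, switches on genes for protective proteins. DI21 was named for a transcript that accumulates during progressive drought, and its product is related to the late embryogenesis abundant proteins, which build up in drying seeds and in water-stressed leaves. Wounding acts mainly through another hormone, jasmonate. AT4G05070 was put forward as a wound-responsive gene, but the gene tables used here hold only its locus and a clone name, with no product or function, so no role is given to it below. Neither gene overlapped another gene in the RefSeq annotation of TAIR10.1 (0 overlapping genes for each), and 0 probes listed either of them together with other genes.

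Values are intensities on the deposited linear scale, which runs from 0 to at most 100. The highest value was 98.9 in psak 3, 98.8 in WT 6 and 100 in every other sample. DI21 was dimmer in psak. Its intensity was 0.0877, 0.202, 0.188, 0.173, 0.205 and 0.251 in psak samples 1 to 6, against 0.503, 0.514, 0.420, 0.554, 0.668 and 0.648 in WT samples 1 to 6. The groups did not overlap, and psak 1 was the dimmest of the 12. The mean was 0.185 ± 0.0543 in psak and 0.551 ± 0.0936 in WT (SD, n = 6 each), so that the WT mean was 2.98 times the psak mean. On this scale, every psak sample lay below every WT sample for 9.25% of the 2358 probes that were above 0 in all samples. Relative to its mean, DI21 varied more in psak, with a coefficient of variation of 29.4%, than in WT, with 17.0%.

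AT4G05070 was brighter in psak. Its intensity was 1.46, 1.36, 1.11, 0.836, 0.676 and 0.389 in psak samples 1 to 6, against 0.799, 0.473, 0.178, 0.0985, 0.214 and 0.174 in WT samples 1 to 6. Here the groups overlapped: WT 1 was brighter than psak 5 and 6, and WT 2 brighter than psak 6. In 33 of the 36 comparisons of a psak sample with a WT sample, the psak sample was the brighter one. The psak samples lay wholly above the WT samples for 3.82% of the probes above 0 in all samples. The mean was 0.973 ± 0.414 in psak and 0.323 ± 0.266 in WT (SD, n = 6 each), a ratio of 3.02. The coefficient of variation was 42.6% in psak and 82.5% in WT, where samples 1 and 2 stood above the other 4.

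**Figure D1:**
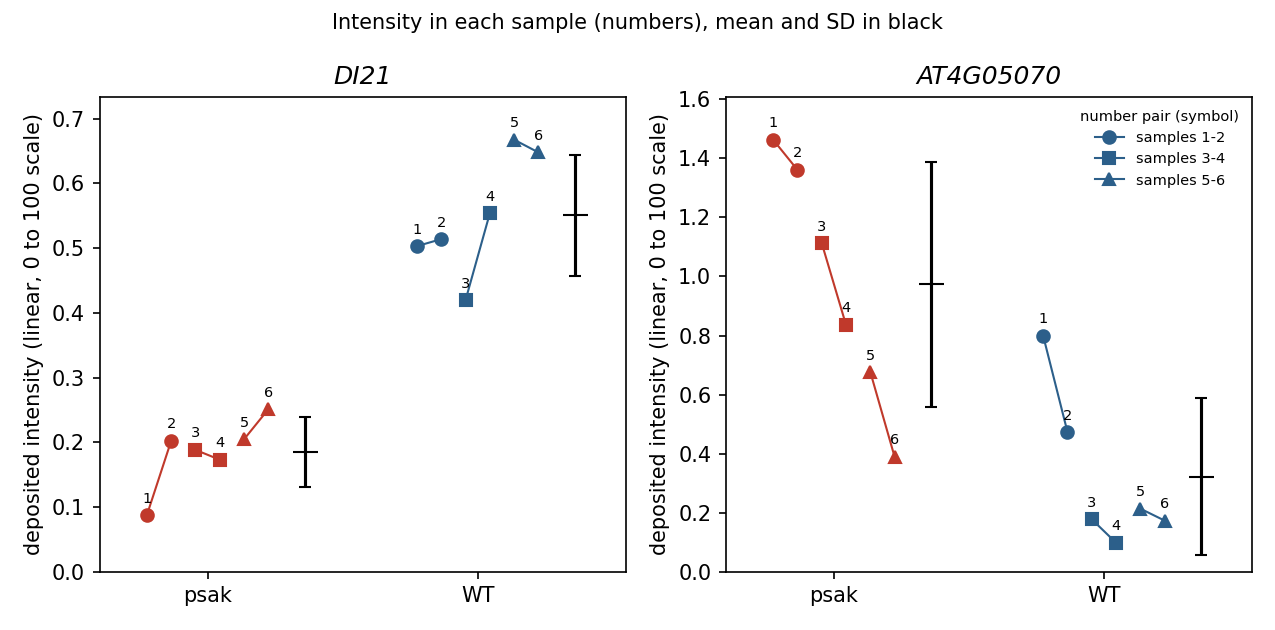
Deposited intensity (linear scale) of DI21 and AT4G05070 in each psak and WT sample; digits are sample numbers, symbols and lines join samples 1-2, 3-4 and 5-6, and black bars are the mean and SD of 6 samples. DI21 lies between 0.0877 and 0.251 in psak and between 0.420 and 0.668 in WT, while the AT4G05070 ranges, 0.389 to 1.46 in psak and 0.0985 to 0.799 in WT, overlap.

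Read by sample number, both genes kept 1 direction. DI21 was lower in psak in all 6 comparisons of samples with the same number, and AT4G05070 was higher in all 6. Over the probes above 0 in all samples, psak was lower in every such comparison for 17% and higher in every one for 7.12%. The psak over WT ratio of AT4G05070 ran from 1.83 for number 1 to 8.49 for number 4, and that of DI21 from 0.174 for number 1 to 0.449 for number 3. Samples of 1 number were not tied to each other by the labels, so these ratios only set values side by side.

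Neighbouring sample numbers were alike across the array, and the values are therefore also given for numbers 1-2, 3-4 and 5-6. DI21 averaged 0.145 in psak and 0.509 in WT in numbers 1-2. In numbers 3-4 it averaged 0.181 in psak and 0.487 in WT, and in numbers 5-6 0.228 in psak and 0.658 in WT. The WT mean was thus 3.51, 2.69 and 2.88 times the psak mean in the 3 number pairs. AT4G05070 averaged 1.41 in psak and 0.636 in WT in numbers 1-2. It averaged 0.974 in psak and 0.138 in WT in numbers 3-4, and 0.533 in psak and 0.194 in WT in numbers 5-6, which gives psak over WT ratios of 2.22, 7.05 and 2.75. In both genotypes AT4G05070 was brightest in numbers 1-2. In psak it was dimmest in numbers 5-6, and in WT in numbers 3-4.

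For the comparison over the whole array, values of 0 were set aside and the rest were taken to log2 and quantile normalized, which gives every sample the same distribution. On this scale DI21 averaged -2.60 ± 0.94 in psak and -0.95 ± 0.15 in WT (SD, n = 6 each). Its log2 fold change, psak minus WT, was -1.65 ± 0.36 (SE from limma). AT4G05070 averaged 0.02 ± 0.58 in psak and -2.07 ± 1.12 in WT, a log2 fold change of 2.09 ± 0.48. Of 2993 tested probes, 14.8% were at a limma adjusted p under 0.05, with 8.12% higher and 6.72% lower in psak (243 and 201 probes). On the values as deposited the split was 146 higher and 275 lower. DI21 had the 46th lowest and AT4G05070 the 36th highest fold change of all tested probes. Among the single-gene probes past that threshold, DI21 ranked 2 from the bottom of the 46 that were lower in psak (7.73% of the 595 tested) and AT4G05070 ranked 3 from the top of the 34 that were higher (5.71%). Their limma adjusted p, 0.0105 for DI21 and 0.0120 for AT4G05070, belongs to the values that picked them. With number pairs within each genotype as a random block it was 0.0649 and 0.0566, in a fit where 5.1% of all tested probes passed. When each pair was averaged to 1 value, it was 0.208 and 0.218, in a fit where 0 of 2965 probes passed. All of these values were above the threshold. The random block widened the SE to 0.46 for DI21 and 0.56 for AT4G05070. At the threshold itself, the last single-gene probe inside was AT1G68430 (0.90 ± 0.28) and the first outside was AT1G49870 (-0.92 ± 0.29).

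**Figure D2:**
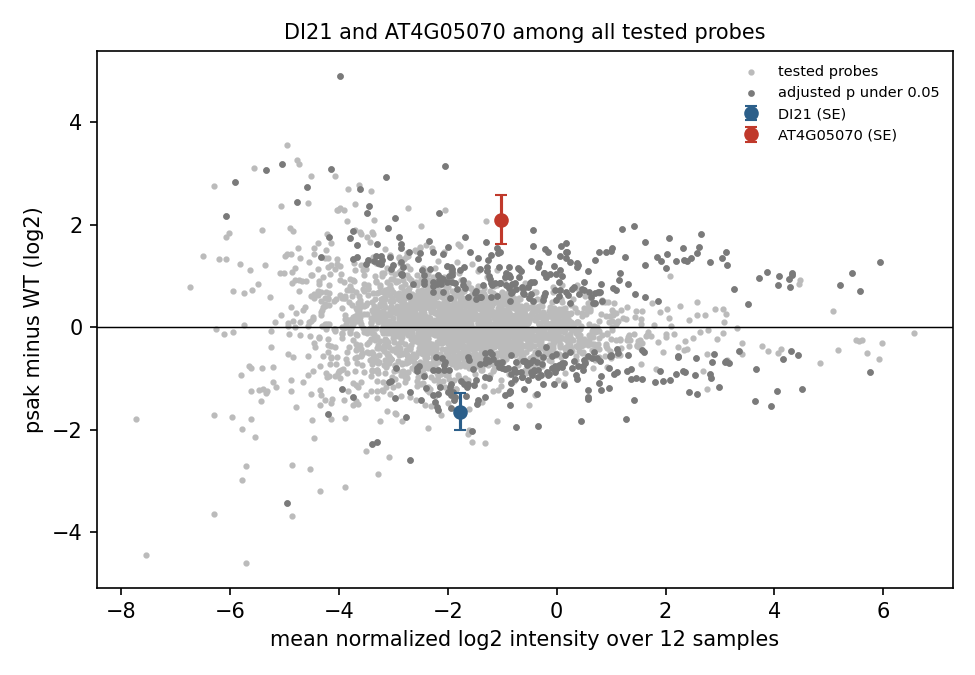
Log2 difference, psak minus WT, against the mean normalized log2 intensity of each of the 2993 tested probes; darker points have a limma adjusted p under 0.05 and bars are SE. DI21 (-1.65) and AT4G05070 (2.09) lie near the edges of the cloud at intermediate brightness.

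The size of the DI21 difference in numbers 5-6 depended on the scale. On the normalized scale DI21 stood at -1.67 and -1.41 in psak 5 and 6, well above psak 1 to 4, which ran from -3.97 to -2.72, and below WT, which ran from -1.23 to -0.82. The psak minus WT difference was -2.37, -1.87 and -0.69 in numbers 1-2, 3-4 and 5-6. With log2 of the values as deposited, the same differences were -1.93, -1.42 and -1.53. With an offset of 0.1 added before log2 and normalization, they were -1.65, -1.41 and -0.48. All 9 values were below 0. The psak samples 5 and 6 stood apart over the array: 18.1% and 19.4% of their probes were at 0, against 13.0% to 13.6% in psak 1 to 4 and 13.8% to 16.5% in WT. The log2 median of their values above 0 was -2.15 and -2.20, against -1.39 to -1.25 in psak 1 to 4 and -1.66 to -1.28 in WT. In psak 5 and 6, 56.5% and 62.9% of the probes of the sample were at or below the DI21 value, against 20.4% to 33.0% in psak 1 to 4 and 65.6% to 73.3% in WT. Without psak 5 and 6, the log2 fold change was -2.10 ± 0.23 for DI21 and 2.31 ± 0.51 for AT4G05070.

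For AT4G05070 the differences were 1.27, 2.96 and 2.04 on the normalized scale and 1.20, 2.87 and 1.41 as deposited. They were 1.12, 2.21 and 1.62 with the offset, so all 9 were above 0 and numbers 3-4 had the highest value on each scale. In 35 of 36 comparisons of a psak with a WT sample the normalized value was higher in psak, the exception being psak 6 against WT 1. The share of probes at or below AT4G05070 was 73.0% to 92.0% in psak samples. In WT it was 81.4% and 69.2% in samples 1 and 2, and 27.7% to 40.2% in the other 4. DI21 kept its groups apart on the normalized scale too, where psak lay wholly below WT for 5.6% and wholly above it for 6.23% of the probes above 0 in all samples. In all 3 number pairs psak was lower for 23.8% and higher for 19.8% of these probes.

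**Figure D3:**
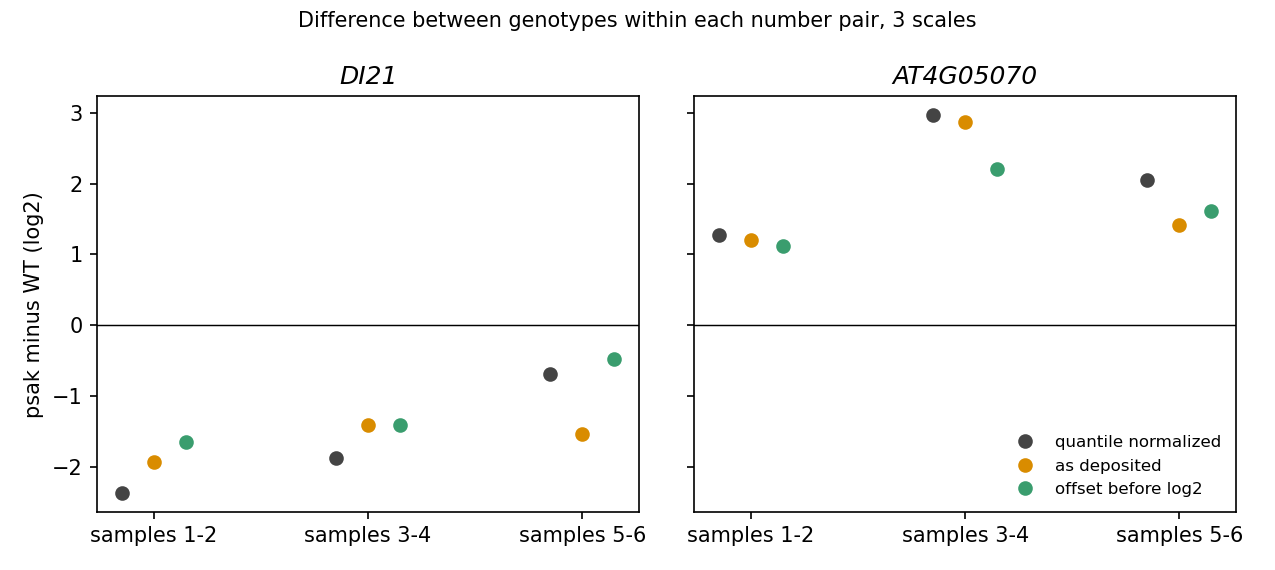
Difference psak minus WT (log2) of DI21 and AT4G05070 within samples 1-2, 3-4 and 5-6, on the quantile-normalized scale, as deposited, and with an offset of 0.1 before log2; each point is a difference of means of 2 samples per genotype. All DI21 points are below 0 and all AT4G05070 points above 0, and the scales differ most for DI21 in samples 5-6 (-0.69 normalized, -1.53 as deposited).

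Whether the genotype difference itself varied between the number pairs was not the contrast that picked the genes, but it is not independent of that choice. In the fit of genotype alone, such variation is part of the spread within genotypes. Picking probes with a clear genotype difference can therefore favour a small interaction. The limma F-test of the genotype by number pair interaction gave an adjusted p of 0.0815 for DI21 and 0.102 for AT4G05070, and neither passed. On the values as deposited, the adjusted p was 0.621 for DI21 and 0.0625 for AT4G05070. This test passed for 26% of the 2358 probes with a value in every sample, most of which were not picked in that way, so the comparison with that share is a description. Its error is the spread within number pairs alone. In the normalized values of DI21, genotype took 64.5% of the sum of squares, number pair 16.6%, their interaction 11.8% and the spread within pairs 7.16%. For AT4G05070 the shares were 62.2%, 26.2%, 6.80% and 4.74%. Over all probes above 0 in every sample the median shares were 17.8%, 22.3%, 17.9% and 18.0%. The genotype share only restates how the genes were picked. The shares of a gene add up to its whole sum of squares, so a large genotype share leaves less for the others. The number pair share was smaller in DI21 than in the median probe and slightly larger in AT4G05070, and this too is only a description.

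**Figure D4:**
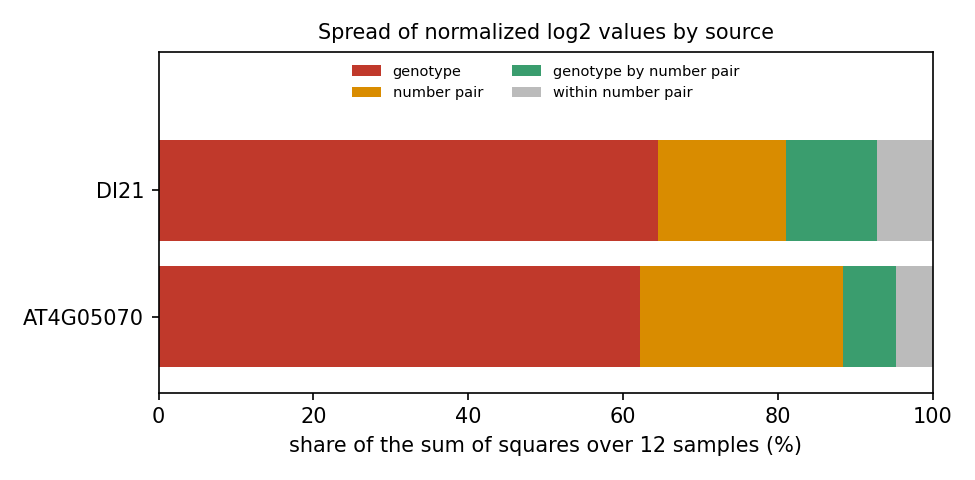
Share (%) of the sum of squares of normalized log2 values over 12 samples that falls to genotype, number pair, their interaction and the spread within number pairs. Genotype takes 64.5% in DI21 and 62.2% in AT4G05070, and number pair 16.6% and 26.2%.

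Both genes were noisy for their brightness on the normalized scale. By mean intensity, 53.1% of the tested probes were at or below DI21 and 74.5% at or below AT4G05070. Among the 25% of tested probes in this band, brighter than the median and dimmer than the top 25%, the median residual SD within genotypes was 0.41 on the log2 scale. That of DI21 was 0.67, at or above that of 83.7% of the probes of the band, and that of AT4G05070 was 0.89, at or above 93.4%. As deposited, the residual SD of DI21 was 0.41, below the band's median of 0.49, while AT4G05070 stayed high at 0.93. The log2 fold change as deposited was -1.63 ± 0.24 for DI21 and 1.83 ± 0.50 for AT4G05070 (SE), against a median of -0.11 over all tested probes. Samples of 1 number pair differed by 0.19 to 1.25 for DI21 in psak and by 0.02 to 0.38 in WT on the normalized log2 scale. For AT4G05070 they differed by 0.14 to 0.63 in psak and by 0.30 to 0.89 in WT.

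**Figure D5:**
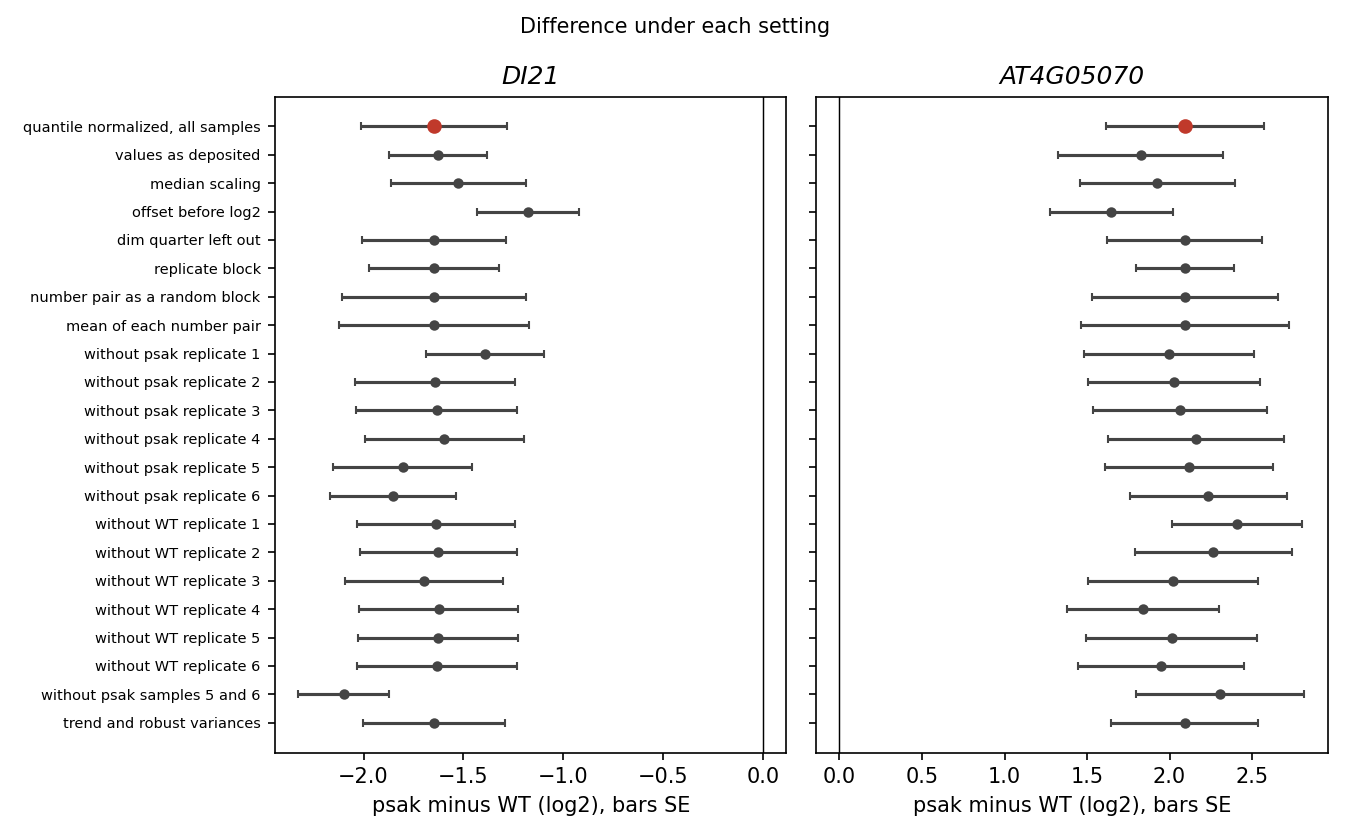
Log2 difference, psak minus WT, of DI21 and AT4G05070 with its SE under each setting, the red point being the quantile-normalized fit of all 12 samples. DI21 lies between -2.10 and -1.18 and AT4G05070 between 1.65 and 2.41 over all of them.

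The lists of drought-, cold- and ABA-induced protective proteins, ABA synthesis and signalling, wound-induced proteins, and jasmonate synthesis and signalling held 104 loci, of which 0 had a single-gene probe. Only 3 of these loci appeared at all, on 4 probes that list several genes and are therefore not named. The leaf senescence list had 0 single-gene probes as well. A search of gene names and synonyms for words such as drought, wound, dehydrin and jasmonate found DI21 alone among the single-gene probes. Neither the lists nor the search covers these pathways in full: XERICO, described below, met neither. Other genes of these pathways, changed or unchanged, may have been missed in the same way. AT4G00870, which also met neither, was considered too, but the gene tables used here give it no function. The log2 fold change of AT4G00870 was -0.10 ± 0.19 (SE; adjusted p = 0.745 with limma). In the 2 remaining lists, of antioxidant enzymes and of chaperones, 3 genes were tested, and 0 were called higher or lower by limma, against 14.8% of all tested probes. The count at an unadjusted p under 0.05 was 1 of 3, against 29.2% of all tested probes. The number called was also 0 with number pairs as a random block, where 5.1% of all tested probes were called. With pair means it was 0 as well, but 0 of 2965 tested probes were called there, so this count could not differ.

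XERICO (locus AT2G04240), a RING-type zinc finger protein that promotes abscisic acid accumulation and drought tolerance, had a single-gene probe and was singled out after its values were seen. Its intensity was 2.06, 2.12, 1.66, 1.95, 1.77 and 1.63 in psak samples 1 to 6, against 3.89, 3.59, 4.07, 3.53, 2.66 and 2.58 in WT samples 1 to 6. The groups did not overlap, as for DI21. On this scale psak lay wholly below WT for 9.25% of the 2358 probes above 0 in all samples. WT 5 and 6 were the dimmest of the WT samples for XERICO. The mean was 1.87 ± 0.21 in psak and 3.39 ± 0.63 in WT (SD, n = 6 each). Over the 12 samples the log2 fold change of XERICO was -0.55 ± 0.16 (SE), and its difference was -0.43, -0.71 and -0.51 in numbers 1-2, 3-4 and 5-6. The adjusted p of 0.0342 with limma belongs to the values that singled XERICO out, so it is a description and not a test. Of 9 settings other than leaving out 1 sample, XERICO stayed under the threshold in 5. As deposited, its log2 fold change was -0.85 ± 0.17 (SE; adjusted p = 0.00636 with limma), against a median of -0.11 over all tested probes. By limma XERICO did not pass with the number pair taken as a random block (adjusted p = 0.135) or with pair means (0.348). It also did not pass with median scaling (0.0710) or without psak 5 and 6 (0.0563). Nor did it pass when psak 1, 3 or 6 or WT 1, 2, 3 or 4 was left out (limma adjusted p = 0.0519 to 0.0709).

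AT3G52960, a peroxiredoxin, ranged from 0.0536 to 0.494 with a median of 0.299 in psak, against 0.0205 to 0.188 with a median of 0.0976 in WT. The log2 fold change of AT3G52960 was 1.33 ± 0.48 (SE; adjusted p = 0.0867 with limma). SRX, the sulfiredoxin that reduces overoxidized peroxiredoxins, ranged from 0.0303 to 0.409 (median 0.319) in psak and from 0.0477 to 0.295 (median 0.162) in WT. The log2 fold change of SRX was 0.61 ± 0.52 (adjusted p = 0.465 with limma). Cpn60beta3, a subunit of the chloroplast chaperonin that folds imported proteins, ranged from 0.150 to 0.504 (median 0.454) in psak and from 0.220 to 0.416 (median 0.296) in WT. The log2 fold change of Cpn60beta3 was 0.27 ± 0.19 (adjusted p = 0.364 with limma). The psak and WT samples overlapped for all 3 genes. Within numbers 5-6 the difference was 0.35 for AT3G52960, -0.90 for SRX and -0.39 for Cpn60beta3, and it was above 0 for all 3 genes in the other number pairs. Without psak 5 and 6, AT3G52960 and Cpn60beta3 passed (limma adjusted p = 0.0239 and 0.0147), in a fit that called 31.9% of all tested probes.

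The genes whose values followed those of DI21 most closely were sought among the other 475 single-gene probes above 0 in every sample. Likeness was Pearson's r of normalized log2 values over the 12 samples, which share arrays, number pairs and the genotype difference, and it is given as a description. The 5 highest were AT1G49870 (r = 0.96), AT4G27510 (0.92), AT1G50510 (0.92), AT4G32340 (0.92) and APS4 (0.92), a plastid ATP sulfurylase that activates sulfate. The median r was -0.13. AT1G49870 averaged 0.432 ± 0.127 in psak and 0.811 ± 0.0946 in WT, and APS4 0.256 ± 0.0979 in psak and 0.555 ± 0.0922 in WT (SD, n = 6 each). After the genotype means were taken out, AT1G49870 (0.93), AT1G50510 (0.91) and AT4G32340 (0.91) were again among the 5, now with the gene listed as chr31 (0.90) and AT1G30700 (0.90). As deposited, r without the genotype means was 0.77, 0.66, 0.76, 0.68 and 0.92 for these 5 genes.

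AT4G05070 was most like LHB1B2 (r = 0.93), a chlorophyll-binding protein of the main photosystem II antenna, AT5G19210 (0.91), AT3G06570 (0.90), PSAN (0.85), the lumenal photosystem I subunit at the plastocyanin docking site, and AT5G11010 (0.85), over the 12 samples. The median r was -0.01. As deposited, the r of LHB1B2 was 0.82 and that of PSAN 0.82, but that of AT5G11010 was 0.42. After the genotype means were taken out, the 5 highest were AT2G38550 (0.82), LHB1B2 (0.80), AT1G54520 (0.77), AT3G06570 (0.77) and AT1G74470 (0.76), the geranylgeranyl reductase of chlorophyll synthesis. As deposited, LHB1B2 had an r of 0.55 there and AT2G38550 one of 0.90. DI21 and AT4G05070 themselves had an r of -0.42 after their genotype means were taken out.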

How the data were processed

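The authors deposited 1 linear intensity per probe and sample; their scanning, background correction and scaling are not described in the labels or the file. What an intensity of 0 stood for is therefore unknown, and 446 probes with under 2 values above 0 in a genotype were not tested. Precision is limited by having 6 samples of each genotype. Zeros were set to missing, the remaining values taken to log2 and quantile normalized, and 2993 probes were fitted in R 4.3.3 by the lmFit and eBayes functions of limma 3.58.1 (psak minus WT, two-sided p-values, adjusted after Benjamini and Hochberg over all tested probes). The fits were tested on simulated data.

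Gene names came from the probe table of the platform, matched to the RefSeq table of TAIR10.1 for 690 of 692 single-gene probes; 870 probes list several genes and 1877 are not listed. The sources name no genome build for the array, so no coordinates are given, and promoter and protein sequences were not analysed here. The labels do not say whether samples came from separate plants, so p-values measure only the spread between these samples. No probe carried the PSAK name alone, so its level could not serve as a check of the genotype labels. The members and lists were chosen with earlier results of these data known. The genes named are both members, up to 4 genes of each list with the smallest p, the 5 most alike genes by each measure of likeness, and the single-gene probes on either side of the threshold. Alternatives were other scalings, an offset of 0.1, leaving out dim probes, sample numbers as blocks or averaged, left-out samples and other variance models. XERICO, AT4G00870, likeness as deposited, and number-pair differences as deposited and with the offset were added after seeing the data. Figures were drawn with matplotlib 3.10.9.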

Additional observations from a re-analysis of the deposited data

How the results depend on the processing

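Over 9 settings other than leaving out 1 sample, DI21 kept a log2 fold change from -2.10 to -1.18 and AT4G05070 one from 1.65 to 2.31, and each moved by less than 1 residual SD. Leaving out 1 sample gave -1.85 to -1.39 for DI21 and 1.84 to 2.41 for AT4G05070. The interaction with number pairs stayed above the threshold for both genes under the 5 settings run. With sample number as a replicate block, which the labels do not show to pair samples (the deviations of same-numbered psak and WT samples from their genotype means had an r of 0.08 to 0.24 over the probes), the log2 fold changes were -1.65 ± 0.33 for DI21 and 2.09 ± 0.30 for AT4G05070 (SE) and the array had 212 higher and 220 lower probes.

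Of 2993 probes, 243 were higher and 201 lower in psak (limma), and 874 were at an unadjusted p under 0.05. These counts were 146 and 275 as deposited, 141 and 125 with median scaling, 99 and 55 with number pairs as a random block (consensus correlation 0.590) and 524 and 423 without psak 5 and 6. With pair means both were 0, with 465 of 2965 probes at an unadjusted p under 0.05. Leaving out 1 sample gave 180 to 305 higher and 147 to 278 lower. Of the 3 tested list genes, 2 passed without psak 5 and 6, and 0 to 1 with 1 sample left out, AT3G52960 passing without psak 5. The cause was not tested. Of the 5 genes most alike over the 12 samples, 2 of DI21 and 4 of AT4G05070 were shared with those found on the values as deposited; without genotype means 4 and 2 were shared.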
